A study of Homo sapiens with 2 samples.

Results

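The olfactory receptor genes of chromosome 11 were examined in ATAC-seq peak lists from a breast cancer cell line. Members were the protein-coding genes of chromosome 11 in GENCODE release 44 (hg38) whose symbol is OR, a number, letters and a number, a choice that used no measured value. This gave 172 receptors of 1317 protein-coding genes on the chromosome, with 1145 other genes left for comparison. Another 6 annotated genes with a receptor-like symbol ending in P, such as OR51C1P, were not members and were counted among the other genes. By family number, 55 receptors were class I (families 51 to 56) and 117 were class II, in 11 families in all. Receptors at most 500 kb apart were joined into 11 runs, of which the longest by gene number reached from OR52B4 to OR52W1 (55 receptors, all of the class I members), from OR4A16 to OR5AK2 (48 receptors) and from OR6X1 to OR8A1 (22 receptors).

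ATAC-seq marks open chromatin by the places where the transposase Tn5 inserts sequencing adapters. Both libraries came from SUM159, an established line of triple negative breast cancer that grows with mesenchymal features, and both cell populations carried dCas9-KRAB, a Cas9 that does not cut fused to a repressor domain, from the lentiviral vector pLV-KRAB. The No gRNA library had the vector without a targeting guide, and the All gRNA library had it with 4 guides against the promoter of ZEB1, a repressor of epithelial genes. Each group held 1 library and no library of untransduced cells was analysed here, so no test between conditions was possible, the differences below are between libraries, and intervals cover counting error only.

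Olfactory receptors are G protein-coupled receptors that bind odorants at the cilia of olfactory sensory neurons. Each such neuron expresses a single receptor allele, and most other cells hold the genes silent, often in heterochromatin. The genes lie in large clusters made by repeated duplication. Class I receptors, related to those of fish, sit in a single cluster on the short arm that also surrounds the beta-globin genes, whereas class II receptors are spread over many chromosomes. Receptor choice in the neuron involves LHX2, LDB1 and EBF proteins and their homeodomain and EBF motifs.

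The sequences that carry the promoter results are printed here, from hg38 (plus strand). The first pair are the 121 bases centred on the No gRNA summits nearest to a receptor start, at chr11:4637148-4637268 upstream of OR51D1 and at chr11:5808637-5808757 upstream of OR52N2, and neither held a searched motif. The others are 27 bases around a match to the AP-1 motif TGANTCA, with the 7 bases of the match in capitals. They come from the tallest receptor promoter peak, near OR10S1 (chr11:123974041-123974067), from the peak at the start of OR6A2 (chr11:6799620-6799646), from the peak that OR51G1 and OR51G2 share (chr11:4922007-4922033), and from the peaks near OR10A5 (chr11:6844604-6844630) and OR52W1 (chr11:6201709-6201735).
OR51D1: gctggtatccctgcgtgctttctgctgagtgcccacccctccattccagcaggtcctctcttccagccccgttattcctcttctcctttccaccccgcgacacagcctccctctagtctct
OR52N2: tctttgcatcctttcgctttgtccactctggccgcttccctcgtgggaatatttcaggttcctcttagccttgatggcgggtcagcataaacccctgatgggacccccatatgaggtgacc
OR10S1: agcgagttagTGAGTCActcttacagc
OR6A2: caaaaaaagtTGAGTCAtcgggactaa
OR51G1 and OR51G2: cctacatttcTGAGTCAccagtgttta
OR10A5: tgtcggaatcTGAGTCAggttggaaag
OR52W1: ctaatcctaaTGAGTCAcaagtcttga

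The deposited lists held 74757 peaks for No gRNA and 75217 for All gRNA, of which 3267 and 3220 lay on chromosome 11. The files give no library totals. The depth recovered from the peaks' own statistics was 0.743 times as large in All gRNA, and 19.7% of its chromosome 11 peaks had a −log10 q under 5 against 7.35% for No gRNA. The summit pileup is the number of extended read ends over a peak's summit. At the targeted ZEB1 promoter the strongest peak of each library had a summit pileup of 27 without the guides and 10 with them. These summits lay 366 and 1276 bp from a ZEB1 start, and the counts were not scaled for depth. The cell line's markers were checked by a peak within 4 kb of a start. VIM, CAV1, CD44 and SNAI2, which mark mesenchymal cells, had peaks in both libraries. Of genes that mark other breast cell states, FOXA1 and EPCAM also had peaks in both libraries, and ESR1 and PGR had weak peaks (pileups of 8 and 9) in No gRNA. Of 4 olfactory neuron markers, OMP, CNGA2 and RTP1 had none and GNAL had peaks in both libraries (pileups of 66 and 46).

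Few receptors had open chromatin near a start. A peak within 4 kb of any annotated transcript start was present at 16 of 172 receptors in No gRNA (9.30%, 95% exact binomial interval 5.41 to 14.7) and at 21 in All gRNA (12.2%, 7.72 to 18.1). Over all protein-coding genes of the chromosome the shares were 66.5% and 66.7%. The other genes had a peak at 75.1% (72.5 to 77.6) and 74.8% (72.2 to 77.3). In either library, 23 receptors had a promoter peak (13.4%, 8.67 to 19.4, background 69.4%) against 891 other genes (77.8%, 75.3 to 80.2), and 149 receptors (86.6%) had none. The intervals of receptors and other genes lay far apart in both libraries. Peaks covered 0.351% of the bases within 4 kb of receptor starts in No gRNA and 0.425% in All gRNA, and 3.04% and 2.69% of those within 4 kb of other starts.

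The receptors have fewer annotated starts than other genes, and their promoters are poor in CpG, so like genes were set beside them. Among genes with a single annotated start, 15 of 135 receptors (11.1%, 6.35 to 17.7) and 71 of 157 other genes (45.2%, 37.3 to 53.4) had a peak in either library. Among genes whose promoter had at most 50% GC and a CpG observed over expected ratio under 0.6, 19 of 162 receptors (11.7%, 7.21 to 17.7) and 62 of 173 other genes (35.8%, 28.7 to 43.5) had one. Both restrictions narrowed the gap, and the intervals still did not overlap.

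**Figure D1:**
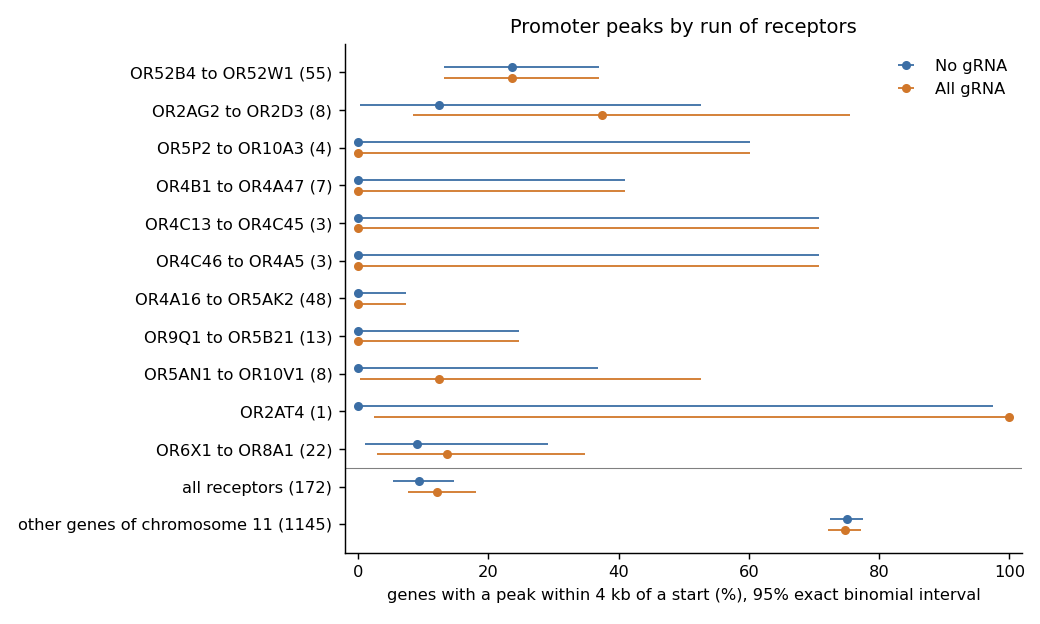
Percentage of genes with a peak within 4 kb of a start (x axis, with 95% exact binomial intervals) for each of the 11 runs of receptors in chromosome order, for all receptors and for the other genes of chromosome 11. Numbers of genes are in parentheses. The 48 receptors from OR4A16 to OR5AK2 are at 0 in both libraries, and the other genes are at 75.1% and 74.8%.

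Class I receptors had promoter peaks more often than class II receptors. In No gRNA 13 of 55 class I receptors had one (23.6%, 13.2 to 37.0) and 3 of 117 class II receptors (2.56%, 0.532 to 7.31). In All gRNA the counts were 13 (23.6%) and 8 (6.84%, 3.0 to 13.0). In either library it was 27.3% (16.1 to 41.0) against 6.84%, and these intervals did not overlap. All class I members share 1 run, so class and place on the chromosome cannot be told apart. By family, a peak in either library was present at 8 of 22 members of family 51, 5 of 27 of family 52, 2 of 6 of family 56, 3 of 16 of family 10, 2 of 23 of family 8, 1 of 35 of family 5 and 0 of 26 of family 4, where a count of 0 gives an upper bound of 13.2%.

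The longest stretch of consecutive receptors without a promoter peak in either library ran from OR10A4 to OR5AN1 and took in 82 receptors (47.7%), on both sides of the centromere. Within it, the run from OR4A16 to OR5AK2 (chr11:55343201-56989843, 48 receptors in 1650 kb) held 2 summits in No gRNA and 5 in All gRNA, or 1.21 per Mb (95% exact Poisson interval 0.147 to 4.39) and 3.04 per Mb (0.986 to 7.09). The rest of the chromosome outside all runs held 24.9 (24.0 to 25.7) and 24.4 (23.5 to 25.2) per Mb. The smaller runs of family 4 receptors from OR4B1 to OR4A47, from OR4C13 to OR4C45 and from OR4C46 to OR4A5 held no summit in either library. Other runs were less empty. The class I run (chr11:4367263-6200186) held 18.5 (12.8 to 25.9) and 20.2 (14.2 to 27.8) per Mb, and the run from OR5AN1 to OR10V1 held 45.1 and 42.3 per Mb. Of the 16 and 15 summits in the latter span, 1 and 0 lay between neighbouring receptors and more than 4 kb from a start. A promoter peak was present at 0 and 1 of its 8 receptors, and OSBP and PATL1 also lie in this span. Over the 11 runs together the density was 11.8 (9.21 to 14.9) and 14.3 (11.5 to 17.7) per Mb.

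**Figure D2:**
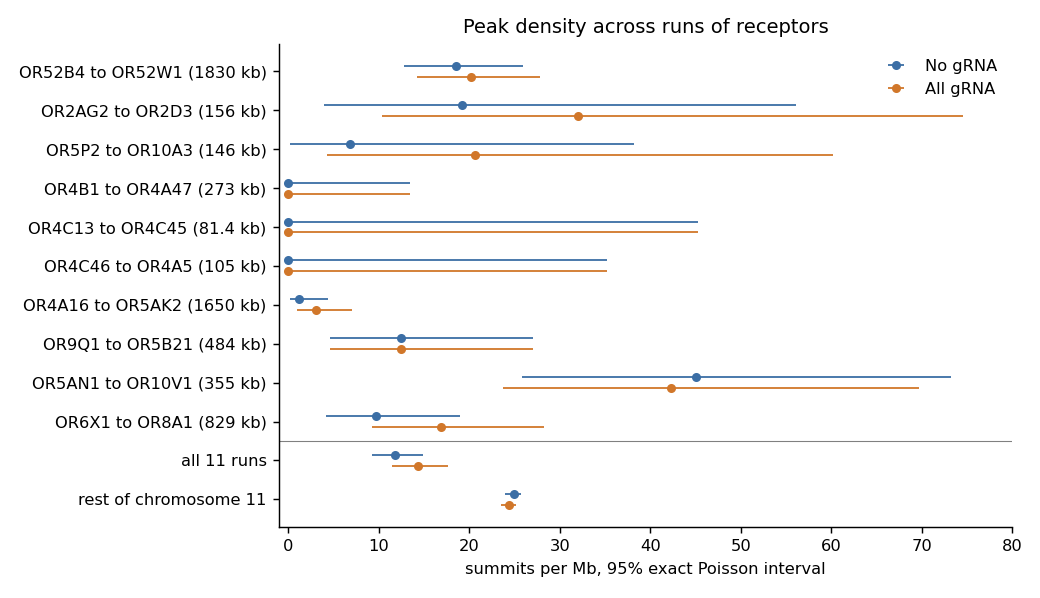
Peak summits per Mb (x axis, with 95% exact Poisson intervals) between the first and last receptor of each run with more than 1 receptor, over all 11 runs, and over the rest of chromosome 11, per library. The run from OR4A16 to OR5AK2 stands at 1.21 and 3.04 per Mb, and the run from OR5AN1 to OR10V1 at 45.1 and 42.3. Spans include other genes that lie inside them, such as OSBP and PATL1 in the latter run.

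Other genes that lie among the receptors had promoter peaks in some of these runs. Of 29 other protein-coding genes inside the runs of at least 5 receptors, 11 had a promoter peak in No gRNA (37.9%, 20.7 to 57.7, background 66.5%) and 14 in All gRNA (48.3%, 29.4 to 67.5, background 66.7%). By run these were 8 and 11 of 19 in the class I run, 2 of 2 from OR5AN1 to OR10V1 and 1 of 4 from OR6X1 to OR8A1. From OR4A16 to OR5AK2 it was 0 of 4 in both libraries. These 4 were TRIM51, OR5D3P, OR5AK3P and ENSG00000284732, of which the last shares its canonical start with OR5M3. The 29 include the 6 receptor-like genes whose symbol ends in P. The strongest were TRIM68 (with a −log10 q of 242 without the guides and 175 with them), PATL1 (185 and 78.1), OSBP (182 and 148), TRIM5 (103 and 57.4) and TRIM21 (75 and 52.4). TRIM genes encode RING-type ubiquitin ligases, TRIM5 among them a restriction factor of retroviruses, and OSBP carries oxysterols. ENSG00000239920 and TRIM34 had the same strongest peak in each list (39.9 and 13.8), 1 bp from a TRIM34 start in No gRNA and 1736 bp from one in All gRNA, and VWA5A (28.5 and 11.4) and TRIM22 (14.8 and 8.72) followed. The tenth by this order, OR51C1P, had only an All gRNA peak (7.91). The beta-globin genes HBB, HBD and HBG1 had no promoter peak, whereas HBG2 and HBE1 were counted in All gRNA through a distant annotated start that they share with OR51B5.

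The distance to open chromatin was large at most receptors. The median distance from the canonical start to the nearest summit was 39.0 kb in No gRNA and 34.2 kb in All gRNA for receptors, and 0.232 and 0.241 kb for other genes. Class I receptors had medians of 18.9 and 17.5 kb and class II receptors of 60.7 and 50.2 kb. A summit lay within 500 bp of the start of 2 receptors in No gRNA (1.16%) and 5 in All gRNA (2.91%), against 58.1% and 57.6% of other genes. At 68 and 63 receptors the nearest summit was over 50 kb away. The largest distance, 1380 kb in both libraries, was at OR4C46 beside the centromere.

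**Figure D3:**
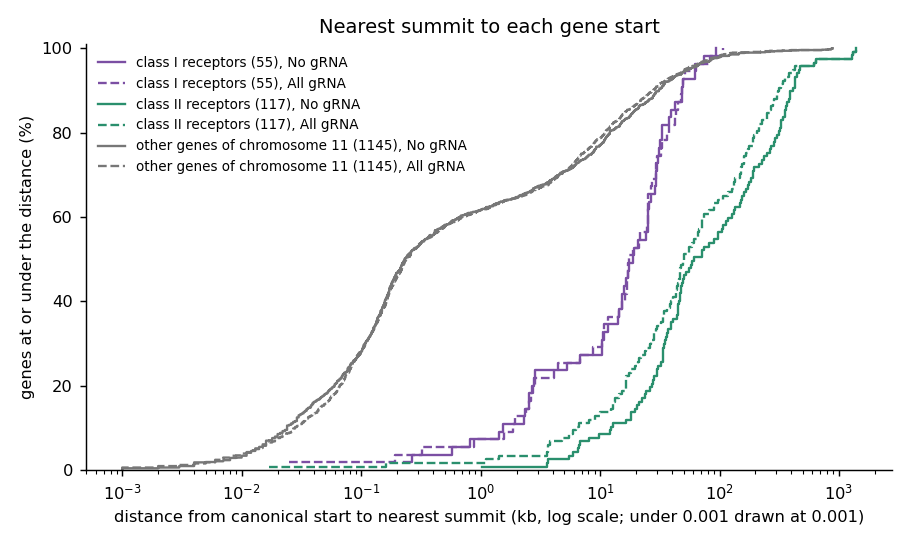
Cumulative percentage of genes (y axis) whose canonical start lies at or under a given distance from the nearest peak summit (x axis, kb, log scale), for class I receptors, class II receptors and the other genes of chromosome 11, solid for No gRNA and dashed for All gRNA. The receptor curves lie to the right of the other genes, with medians of 18.9 and 17.5 kb for class I and 60.7 and 50.2 kb for class II.

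In both libraries, 14 receptors had a promoter peak. The strongest was near OR10S1, at chr11:123973931-123974274 in No gRNA, 3682 bp past the start, with a pileup of 42 and a −log10 q of 43.9. The All gRNA peak there had a pileup of 18 and a −log10 q of 16.6. The ratio of All gRNA to No gRNA pileups after scaling for depth, used for all shared peaks, was 0.577 (0.312 to 1.02). This peak lay between annotated genes. The receptor peaks closest to a start in No gRNA were those of OR51D1 (269 bp upstream, pileups of 23 and 15, ratio 0.878, 0.426 to 1.76) and OR52N2 (227 bp upstream, 23 and 14, ratio 0.819, 0.390 to 1.66). Both genes had unusual promoters for the family. OR51D1 had the highest promoter GC of all receptors, 60.3%, and OR52N2 was 1 of 2 receptors with island-like composition.

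The remaining shared promoter peaks had 9 to 23 read ends in No gRNA and 5 to 15 in All gRNA at the tallest peak of each receptor. OR52H1 had 23 read ends at its summit without the guides and 15 with them (2367 bp upstream of the start in No gRNA). OR51M1 had 22 and 7, with a ratio of 0.428 (0.154 to 1.04), the lowest of the shared receptor promoter peaks. OR52W1 had 19 and 12, and its peak also lay within 4 kb of a start of C11orf42. For each of these the interval of the ratio included 1.

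OR51F2 had pileups of 17 and 11, inside an intron of MMP26. OR51G1 and OR51G2, which encode neighbouring class I receptors, shared a peak between them (chr11:4921951-4922193, pileups of 16 and 13), so for this peak they do not count as separate openings. OR51G1 also had a No gRNA peak of its own, 2536 bp upstream of its start (chr11:4926754-4927027, pileup 17, −log10 q 12.7), with no partner in All gRNA. OR51Q1 had a tallest peak of 16 in No gRNA against 7 in All gRNA, and 60.7% of the 31-base words of the All gRNA peak occurred elsewhere in hg38. OR52K1 had 14 and 7, and OR56B1 had 10 and 5 inside its own coding exon.

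The class II receptors with a shared peak, apart from OR10S1, were OR10A5 (13 and 14, ratio 1.45, 0.632 to 3.35) and OR8B3 (9 and 15, ratio 2.24, 0.920 to 5.81). Both ratios were above 1, with intervals that included it.

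A promoter peak was present in No gRNA only at 2 receptors (1.16%, 0.141 to 4.14, background 2.73%) and in All gRNA only at 7 (4.07%, 1.65 to 8.21, background 2.89%), with overlapping intervals. This order turned when a stricter threshold was applied to both lists. It became 6 and 4 receptors at a −log10 q of at least 5, and 4 and 3 at 10. The totals there were 16 and 14, and 12 and 11. At 5, the No gRNA side gained OR52K1, OR51M1, OR51Q1 and OR56B1, whose All gRNA peaks fell below the threshold (4.97, 4.97, 4.54 and 2.75). The part of depth in this turn was not tested. Among the 135 receptors with 1 annotated start, 2 were specific to each library. The No gRNA pair were OR52J3 (pileup 10) and OR56A5 (pileup 9, in its coding exon). Of the All gRNA peaks, that of OR6A2 lay 17 bp from the start (chr11:6799534-6799806, pileup 12, −log10 q 11.4). That of OR51E2, a receptor known outside the nose in prostate, lay 25 bp from its start (pileup 12), which OR51C1P shares. OR10A2 (161 bp from the start, pileup 7) and OR8D1 (268 bp from an annotated start, pileup 9) also had a peak close by. These 4 were near the start of the receptor itself.

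The others were farther away or nearer to another gene. The peak of OR2AT4, known in skin, lay 3683 bp from its start and 4 bp from a start of SLCO2B1, a transporter of organic anions (pileup 13, −log10 q 12.4). The peak of OR51B5 (pileup 7) lay by an annotated start 162292 bp from the canonical one, which HBE1 and HBG2 share in the annotation. OR5A2 had a peak of pileup 6 at 3785 bp. Of the 5 receptors listed as known outside the nose (OR51E1, OR51E2, OR2AT4, OR51B4 and OR51B5), 0 had a promoter peak in No gRNA and 3 in All gRNA, the 3 just given, beside the 9.30% and 12.2% of all receptors and the 66.5% and 66.7% of all genes of the chromosome. Without receptors whose windows overlap those of other protein-coding genes, 4 receptors had a peak in All gRNA only.

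**Figure D4:**
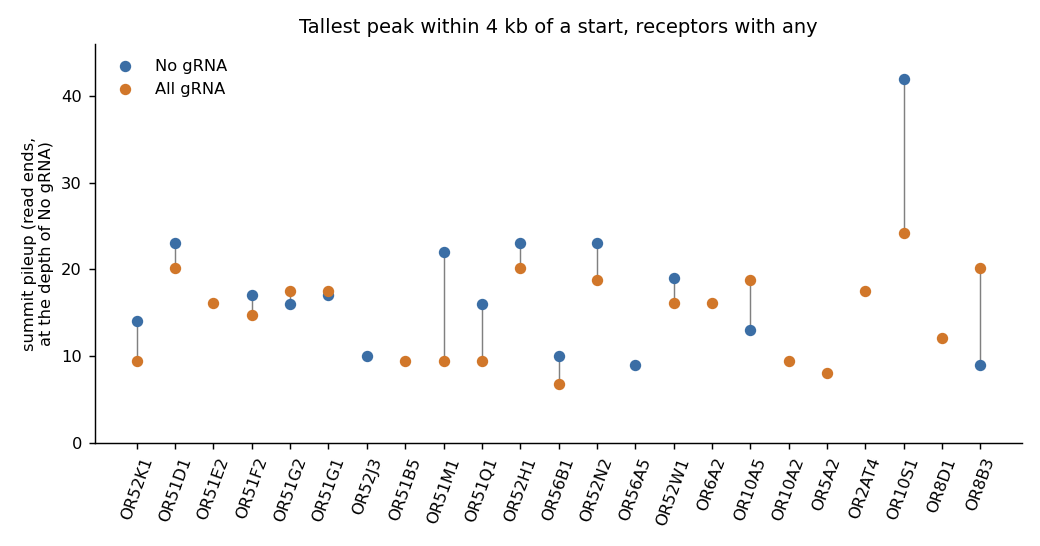
Summit pileup in read ends (y axis), scaled to the depth of No gRNA, of the tallest peak within 4 kb of a start for the 23 receptors with any (x axis, in chromosome order), blue for No gRNA and orange for All gRNA, with a line joining both where both have a peak. OR10S1 stands highest in No gRNA at 42, and 9 receptors have a point from 1 library alone.

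Receptor promoter peaks were narrow and low beside promoter peaks of other genes. Their median width was 271 bp in No gRNA (18 peaks, 200 to 433) and 283 bp in All gRNA (22 peaks, 200 to 460), and the shortest peaks of either list were 200 bp. Promoter peaks of other genes had medians of 421 and 391 bp, and 41.1% and 35.9% of them exceeded 500 bp, a width that no receptor promoter peak passed. The median summit pileup was 16.0 and 11.5 at receptors and 34.0 and 24.0 at other genes. The median fold enrichment was 8.37 and 7.24 at receptors and 9.72 and 8.78 at other genes. Peaks between other genes, more than 4 kb from any start, were closer to receptor promoter peaks in these medians. Their median widths were 311 and 289 bp and their median folds 8.48 and 7.28, and their median pileups were also nearer. Of these peaks, 18% and 15.2% exceeded 500 bp. The part of distance from a start in the low width and height was not tested.

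Between neighbouring receptors, peaks were also sparse. In the 112 intervals of at most 100 kb between consecutive genes that are both receptors, leaving out bases within 4 kb of any start, 2.25 Mb held 14 summits in No gRNA (6.23 per Mb, 3.40 to 10.4) and 18 in All gRNA (8.0, 4.74 to 12.7). The 759 such intervals between other genes held 27.8 (24.8 to 30.9) and 27.4 (24.5 to 30.6) per Mb. A peak was present in 10.7% and 13.4% of the receptor intervals and in 25.3% and 25.6% of the others. Only 19 intervals were class I, because long genes such as MMP26 and the readthrough ENSG00000239920 span much of that run.

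The strongest peaks between receptors were found in both libraries. In No gRNA the first was between OR52K1 and OR52M1 (chr11:4493343-4493655, −log10 q 33.1), with pileups of 35 and 15 and a ratio of 0.577 (0.293 to 1.08). Of its 31-base words in No gRNA, 53.7% occurred elsewhere in hg38, with a median of 2 copies, and their part in the ratio was not tested. The next 2 lay in the long-arm run that holds OR10W1 and the OR5B receptors. One, between OR10W1 and OR5B17 (chr11:58334814-58335199), had pileups of 31 and 35 and was the strongest in All gRNA (−log10 q 39.2). The other, between OR5B17 and OR5B3 (chr11:58394299-58394650), had 24 and 30. Their run had no promoter peak at any of its 13 receptors.

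Other shared peaks were between OR8B8 and OR8B12 (22 and 7), OR8G5 and OR8D1 (21 and 14), OR2D2 and OR2D3 (15 and 17) and OR5P3 and OR10A6 (16 and 29). The last had a ratio of 2.44 (1.28 to 4.81), the only one of 21 receptor peaks with a single partner whose interval left out 1, where 3.72% of all shared peaks of the chromosome had an interval above 1 and 9.48% below. A weaker shared peak between OR52E1 and OR52A5 had pileups of 10 and 9 and a ratio of 1.21 (0.435 to 3.32). The strongest All gRNA peaks without a partner were between OR5M1 and OR5AP2 (chr11:56624744-56625166, pileup 14) and between OR10A5 and OR10A2 (pileup 10). In No gRNA the strongest without a partner was a second peak between OR52K1 and OR52M1 (pileup 10). The median ratio over the 21 was 0.878, with 13 below 1, against 0.921 over 2290 other shared peaks, of which 58.9% were below 1. Over the 1566 of these no taller in No gRNA than the tallest receptor peak the median was 1.01, with 48.6% below 1, a choice by a count that is itself part of the ratio.

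The peak between OR5P3 and OR10A6 lay in repeated sequence, where a read can map to more than 1 place. Of its 31-base words, 78.8% in No gRNA and 84.5% in All gRNA occurred elsewhere in hg38. The part of such mapping in the ratio was not tested.

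Receptor sequences are also copied on other contigs of hg38. For 16 receptors, all class II, over 90% of the words of the 4 kb windows occurred more than once when these contigs were counted, and none had a promoter peak (0 of 16, upper bound 20.6%), against 17 of 28 other genes (60.7%, 40.6 to 78.5). These 16 lie in the runs from OR5P2 to OR10A3 and from OR4A16 to OR5AK2. The start sequences of 15 of them were found on 3 alternate contigs of chromosome 11. A peak lay within 4 kb of the OR5P3 copy in No gRNA and of the OR10A6 copy in All gRNA. Among the 156 receptors with at most 50% repeated words, 23 had a promoter peak (14.7%, 9.58 to 21.3), against 79.3% (76.8 to 81.7) of such other genes.

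Receptor peaks were found in 1 library alone more often in the All gRNA list than peaks elsewhere. Taking promoter peaks and peaks between receptors together, 9 of 32 No gRNA peaks (28.1%, 13.7 to 46.7, background 24.9%) and 19 of 40 All gRNA peaks (47.5%, 31.5 to 63.9, background 22.5%) had no overlapping peak in the other list. Weak peaks are shared less often, and receptor peaks were weaker. At a −log10 q under 5, which held 16 of the 40 All gRNA peaks, the All gRNA share was 62.5% (10 of 16, 35.4 to 84.8) at receptors and 54.9% (50.9 to 58.9) elsewhere. At 5 to 10 it was 66.7% (6 of 9, 29.9 to 92.5) at receptors and 33.4% (30.3 to 36.6) elsewhere, and at 10 or more it was 20% (3 of 15, 4.33 to 48.1) and 4.13% (3.23 to 5.20). In No gRNA, 1 receptor peak was under 5 and was shared, the shares at 5 to 10 were 66.7% (8 of 12, 34.9 to 90.1) and 49.3% (46 to 52.7), and those at 10 or more were 5.26% (1 of 19, 0.133 to 26) and 10.1% (8.86 to 11.5). Within these classes the receptor intervals were wide, and only that of the All gRNA peaks at 10 or more left out the value elsewhere. That interval rested on 3 peaks without a partner, and its lower bound (4.33%) lay close to the value elsewhere (4.13%). The 3 include the OR2AT4 peak, 4 bp from a start of SLCO2B1. The part of depth in the All gRNA share was not tested.

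The promoters, taken as 250 bases before and 50 after the canonical start, differed in composition from those of other genes. Median GC was 37.3% in receptors and 63.3% in other genes, and the median CpG observed over expected ratio was 0.116 and 0.769. No CpG at all was present in 46 receptor promoters (26.7%) and in 23 others (2.01%). An island-like composition (GC of at least 50% and a ratio of at least 0.6) was present in 2 receptors (1.16%), OR52N2 and OR10Q1. It was present in 719 other genes (62.8%). Other genes without a promoter peak were nearer to the receptors, with a median GC of 52.3%, a median ratio of 0.245 and 18.5% island-like. Receptors with a promoter peak had a median GC of 42.0% and those without of 37.0%, with ratios of 0.118 and 0.116, so the CpG ratio was nearly the same in both.

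**Figure D5:**
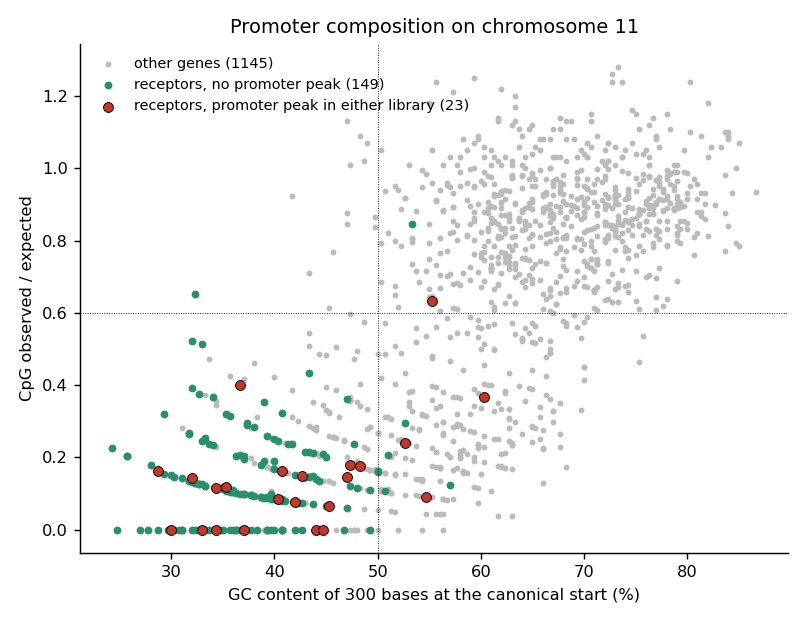
CpG observed over expected ratio (y axis) against GC content in percent (x axis) of the 300 bases at the canonical start, for other genes of chromosome 11 (grey), receptors without a promoter peak (green) and the 23 receptors with one in either library (red), with dotted lines at 50% and 0.6. Most receptors lie at the lower left, and only OR52N2 and OR10Q1 lie beyond both lines.

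Motifs were searched on both strands as plain matches. The homeodomain core TAATTA was present in 21.5% of receptor promoters (15.6 to 28.4) and 3.23% of others (2.29 to 4.43). The EBF core CCCNNGGG was present in 7.56% (4.09 to 12.6) and 24.4% (21.9 to 27), and TATAAA, searched on the sense strand, in 18.0% (12.6 to 24.6) and 8.30% (6.76 to 10.0). Beside all other genes, the AT-rich words were thus more frequent in receptor promoters and the GC-rich EBF core less frequent. Beside other genes without a promoter peak this did not hold for TATAAA, which was present in 23.2% of them (18.2 to 28.9). In those genes TAATTA was present in 8.27% (5.19 to 12.4) and the EBF core in 20.9% (16.0 to 26.4). The part of base composition in these shares was not tested. TAATTA was present at 2 of 23 receptors with a promoter peak (8.70%, 1.07 to 28) and at 23.5% (16.9 to 31.1) of those without.

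Within 100 bases of the summits, the AP-1 motif TGANTCA, which FOS and JUN proteins bind, was present in 15 of 32 receptor peaks of No gRNA (46.9%, 29.1 to 65.3) and 12 of 40 of All gRNA (30.0%, 16.6 to 46.5). Over other chromosome 11 peaks farther than 4 kb from a start the shares were 38.2% (36.0 to 40.4) and 38.9% (36.8 to 41.1), inside the receptor intervals. The EBF core was present in 6.25% and 7.5% of receptor peaks and in 9.18% and 9.25% of other peaks. A CTCF core was present in 0 of 32 and 1 of 40 receptor peaks, and in 2.60% and 2.26% of other peaks.

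Genes that act with the receptors in the olfactory neuron were examined by the same promoter measure, in which a peak was present at 74.3% and 73.9% of all 19970 autosomal and X-linked protein-coding genes. Of 14 genes of olfactory transduction, 6 had one in No gRNA and 5 in All gRNA. GNAL, the olfactory G protein subunit (pileups of 66 and 46), ADCY3, its adenylyl cyclase (37 and 25), RIC8B, which acts on GNAL (200 and 124), and the channel subunits CNGA4 and CNGB1 had peaks in both. The CNGA4 peaks lay 177 and 227 bp from an annotated CNGA4 start. The nearest summits to its canonical start were 4147 and 4097 bp away, and those nearest to the canonical start of FHIP1B 306 and 356 bp. The CNGB1 peak was weak in All gRNA (pileup 5, 1367 bp from a start, against 16 at 394 bp in No gRNA). ANO2, a calcium-activated chloride channel, had a peak of pileup 10 in No gRNA alone. None was present at OMP, CNGA2, RTP1, RTP2, STOML3, GNG13, SLC24A4 or PDE1C.

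Of 14 genes of receptor choice and silencing, 11 had a promoter peak in No gRNA and 10 in All gRNA. LDB1 (52 and 29), EBF1 (146 and 90), EBF4 (16 and 7), EMX2 (22 and 11), the demethylase gene KDM1A (42 and 17), ATF5 (52 and 33), the histone methyltransferase gene SETDB1 (49 and 29), and DDIT3, EIF2AK3 and CBX5 had peaks in both libraries. The strongest peaks of DDIT3 and EIF2AK3 were nearest to starts of MBD6 and RPIA, and that of CBX5 in No gRNA to a start of HNRNPA1. EBF2 had a peak of pileup 28 in No gRNA alone. LHX2, EBF3 and EHMT2 had none.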

How the data were processed

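ATAC-seq peak lists of 2 SUM159 libraries were used. The authors used fastp for trimming and bowtie2 for mapping to hg38, filtered out duplicate, mitochondrial and excluded-region reads, and called peaks per library with MACS2 and no control. Versions, and any mapping quality filter, are not given in the sources used here. The deposited columns hold a score (not used), a fold enrichment (ratio), −log10 p and −log10 q, and the summit offset. The pileup and local background were solved from the deposited fold and −log10 p, which succeeded for 99.8% and 99.9% of the peaks (No gRNA first). Depth was compared by the lowest background, 0.651823 and 0.484381. Both ends of a fragment may count, in which case neighbouring counts are not independent and intervals are too narrow. Whether both were counted is not given in the sources used here.

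Promoters were 4000 bp either side of every GENCODE start, and peaks were shared at an overlap of at least 1 bp. Python 3.11.15, numpy 2.4.6, pandas 2.3.3, scipy 1.17.1, numba 0.67.0 and matplotlib 3.10.9 were used, with Clopper-Pearson and exact Poisson intervals at 95%. An upper bound beside a count of 0 is that of the interval. Ratio intervals are exact binomial. Named genes were every receptor with a promoter peak, the 8 strongest peaks between receptors per library, the 10 strongest genes inside runs, and the gene lists. The members, lists and rules were chosen with earlier results of these data known, and the comparisons by number of starts, GC and repeated words after seeing these values. RefSeq promoters listed 133 of the receptors. Sequences came from hg38.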

Additional observations from a re-analysis of the deposited data

How the results depend on the processing

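No paired analysis was possible because there was a single library on each side. Of 99 alternative values, 62 stayed near the reported value, which meant within 1.5 times for counts, inside its interval for shares and densities, and within 1 SD over peaks for medians, and 37 moved. The order of the libraries was not part of this count, and it turned with the −log10 q threshold. The causes were not tested beyond what each alternative changes by construction. With promoters of 1 kb, 5 receptors in No gRNA and 9 in All gRNA had a peak, with 1 specific to No gRNA, and 5.81% of receptors and 70.5% of other genes in either library. With 10 kb the values were 25, 33, 4 and, in All gRNA only, 12, with 21.5% and 85.5%. With a −log10 q of at least 5, 16 receptors in No gRNA and 14 in All gRNA had a peak, 6 and 4 of them in that list alone. At 10 these were 12 and 11, and 4 and 3, with 69.9% of other genes. With a scaled pileup of at least 15, 10 and 12 receptors had a peak, 3 and 5 of them with none that passed in the other list. Of other genes, 69.3% had one. Canonical starts alone gave 72.4% of other genes. Windows apart from other genes left 2 receptors specific to No gRNA and 4 to All gRNA. The excess of the latter was absent under both −log10 q thresholds and present under each of the other settings in this count. It was also absent among the 135 receptors with 1 annotated start, where 2 were specific to each library.

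Between receptors, a −log10 q of at least 5 gave 6.23 peaks per Mb without the guides and 4.89 with them, one of at least 10 gave 3.11 and 2.22 peaks per Mb, and the pileup threshold 3.11 and 2.67. Between other genes the densities in No gRNA and All gRNA were 20 and 20.1 with intervals of any length, 43.2 and 41.9 with all summits, 17.7 and 12.7 at a −log10 q of at least 10, 16.5 and 14.7 with the pileup threshold, and 22 in All gRNA at 5. Receptors were lower than other genes under each of these settings for densities. Among receptor peaks with a −log10 q of at least 10, 5.26% (No gRNA) and 20% (All gRNA) were in 1 library alone. Scaling by the median ratio over shared peaks gave a median of 0.956 and 3 receptor peaks with an interval above 1. A repeat-masked share was planned and not run, since the genome used holds no masking, and no replicate could be left out.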
